A study of Mus musculus with 6 samples.

Results

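Translation initiation factor genes were described in kidneys of tacrolimus-treated and saline-treated mice after ischemia and reperfusion. Members were the protein-coding genes whose symbol begins with Eif and a factor number from 1 to 6, with Eif4ebp1 left out, which gave 72 of the 56747 genes in the table. By factor number, 21 were eIF1 genes, 15 eIF2, 14 eIF3, 17 eIF4, 4 eIF5 and 1 eIF6. All libraries came from whole kidneys of male wild-type C57BL/6J mice, taken after 30 min of ischemia and 24 h of reperfusion. In 3 libraries the mice had received oral tacrolimus at 1 mg/kg/day for 1 day, and in the other 3 oral saline. The design text gives 6 animals per group and words the ischemia differently for the groups (occlusion of both renal arteries with tacrolimus, partial bilateral ischemia with saline), so drug and surgery cannot be told apart. No uninjured kidney was among the libraries, and the series title names zafirlukast where the labels name tacrolimus. Whether the 3 libraries of a group came from 3 animals is not stated in the labels, and the spread behind each p-value is that between libraries.

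Initiation factors bring the ribosome to the start codon. The eIF4F complex, made of the cap-binding protein eIF4E, the scaffold eIF4G and the RNA helicase eIF4A, prepares the messenger RNA. The many-subunit eIF3 complex, eIF1 and eIF1A act on the small ribosomal subunit, and eIF2 brings the initiator tRNA with GTP. The exchange factor eIF2B recharges eIF2, and this step is the target of the eIF2 kinases in the integrated stress response. Proximal tubule cells of the kidney are known for high protein synthesis, and translation is known to be reduced in the injured kidney. Tacrolimus binds FKBP12 and inhibits the phosphatase calcineurin, and is used to suppress T cells.

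Most initiation factor genes were somewhat lower with tacrolimus than with saline, and none passed the test over all genes. Counts were compared with edgeR's quasi-likelihood test with Benjamini-Hochberg adjustment, over 17557 genes with enough counts. This left 53 of the 72 members to test, and their smallest adjusted p was 0.392. Over all genes, 2 were called, or 0.0114%. By DESeq2 no member was called either, with a smallest adjusted p of 0.0786 for Eif6, where 1.96% of all genes were called. At an unadjusted edgeR p under 0.05, 6 members (11.3%) were lower and 0 higher, against a background of 7.72% of all genes lower. Of the 17557 genes, 868 were higher at that threshold. In either direction the share was 11.3% of the members and 12.7% of all genes. The fitted log2 fold change of tacrolimus over saline was negative for 45 of the 53 members (84.9%) and for 50.7% of all genes. Its median was -0.12 over the members and -0.01 over all genes. Differences were small: 37 members (69.8%) lay within 1.2-fold, as did 47.5% of all genes. In 11 members (20.8%) all 3 tacrolimus libraries lay below all 3 saline libraries, as in 11.0% of all genes, counting by CPM. Eif1b and Eif6 are among the 11 by narrow margins, and by FPKM their groups overlapped. In 2 members (3.77%) they lay above, as in 10.7% of all genes.

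Saline replicate 1 stood apart from the other saline libraries and lay near the tacrolimus libraries for many members. Taken as each library's median log2 CPM (counts scaled to library size) minus the 6-library mean, the members stood at -0.07, -0.09 and -0.04 in the tacrolimus libraries, against -0.03, 0.11 and 0.12 in saline replicates 1, 2 and 3. The same median over all genes tested stayed between 0.01 and 0.02 in the tacrolimus libraries and between 0.00 and 0.02 in the saline libraries. Saline replicate 1 lay within the range of the tacrolimus libraries for 31 members (58.5%), against 49.2% of all genes. It was below both other saline libraries for 35 members (66.0%), against 35.7% of all genes. The deposited FPKM (fragment counts scaled to gene length and library size) was also summed over the tested members. It came to 1403, 1377 and 1427 in the tacrolimus libraries, against 1381, 1594 and 1698 in the saline libraries. Over all genes tested, the FPKM sum also varied by library. Tacrolimus replicates 1, 2 and 3 had 516645, 473305 and 497024. Saline replicates 1, 2 and 3 had 491911, 497592 and 572310. Saline replicate 3 had the highest sum in both sets, so its 1698 cannot be read as a rise of the members alone.

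**Figure D1:**
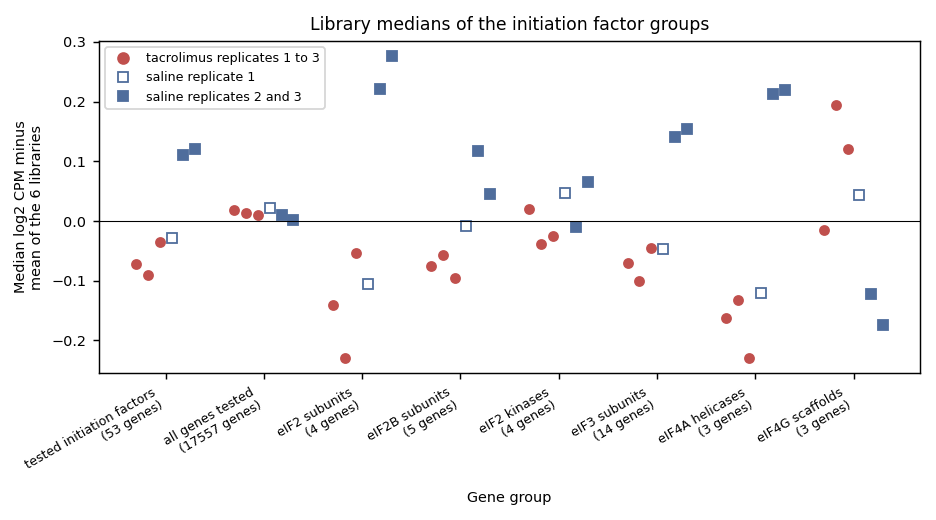
Median over genes of log2 CPM minus the 6-library mean, by library, for the tested initiation factor genes, for all genes tested and for groups of the factors. Circles are the 3 tacrolimus libraries, the open square is saline replicate 1 and the filled squares are saline replicates 2 and 3; the members' medians in saline replicates 2 and 3 (0.11 and 0.12) lie above those of the other 4 libraries, and the order is turned round for the eIF4G scaffolds.

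Without saline replicate 1, 7 members (13.2%) were called lower with tacrolimus by edgeR and 0 higher, beside 6.16% of all genes called lower and 7.85% called higher. These were Eif2s2, Eif2b3, Eif3d, Eif3e, Eif3j2, Eif4a1 and Eif6. The members' median log2 fold change was then -0.14. Leaving out any other single library gave 0 members called. By the members' median, saline replicate 1 was the saline library nearest the tacrolimus ones. Leaving it out therefore widens the group difference, and the calls without it are not separate support for one. Tubular injury markers were lower with tacrolimus too, but by edgeR none was called with all 6 libraries (adjusted p = 0.392 for each). DESeq2 called all 3 (adjusted p of 0.00878 or less). Havcr1, which encodes the injury protein KIM-1, had 14.95, 57.7 and 118 CPM with tacrolimus and 268, 1598 and 1081 CPM with saline. All 3 injury markers listed were lower, and their summed CPM was 65.4 to 199 with tacrolimus against 358 to 4312 with saline, lowest among the saline libraries in replicate 1. All 4 proximal tubule markers were higher, summing to 4594 to 5328 CPM with tacrolimus against 715 to 4408 CPM with saline. Their edgeR adjusted p ran from 0.392 to 0.435 with all 6 libraries, and the groups of Slc34a1 overlapped. Without saline replicate 1 it ran from 0.00460 for Slc34a1 to 0.0658 for Cubn. By DESeq2 only Slc5a2 of these was called (adjusted p = 0.00263). Both endothelial markers, Kdr and Pecam1, were higher too, summing to 141 to 165 CPM with tacrolimus against 83.0 to 130.4 CPM with saline. With all 6 libraries, Kdr had an edgeR adjusted p of 0.392 and Pecam1 of 0.411, and the groups of Pecam1 overlapped. Without saline replicate 1 the edgeR adjusted p was 0.0115 for Kdr and 0.0408 for Pecam1. Both thick ascending limb markers were higher, at 5924 to 7778 CPM with tacrolimus against 2496 to 6208 CPM with saline in sum. Of these, Slc12a1 had an edgeR adjusted p of 0.426 with all 6 libraries, with overlapping groups, and 0.00784 without saline replicate 1. Umod, the other, had a log2 fold change of 0.24 (edgeR adjusted p = 0.726), which reached -0.068 with 1 library left out. For Umod, saline replicate 3 (5984 CPM) lay above all 3 tacrolimus libraries. Of 7 leukocyte markers, 5 had enough counts to test, 2 higher (Ptprc and Adgre1) and 3 lower (Cd68, S100a8 and S100a9). The 7 summed to 22.6 to 28.9 CPM with tacrolimus against 29.9 to 61.8 CPM with saline, with Cd3e and Cd79a at or near 0. Ptprc and Adgre1 thus went against the direction of the sum. By edgeR none of the 5 was called with all 6 libraries (adjusted p from 0.392 to 0.442), and all 5 were without saline replicate 1. DESeq2 called S100a8 and S100a9 only. The part of injury and of these cell types in the members' differences was not tested. In whole kidney, fewer cells of a type and less RNA per cell cannot be told apart.

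**Figure D2:**
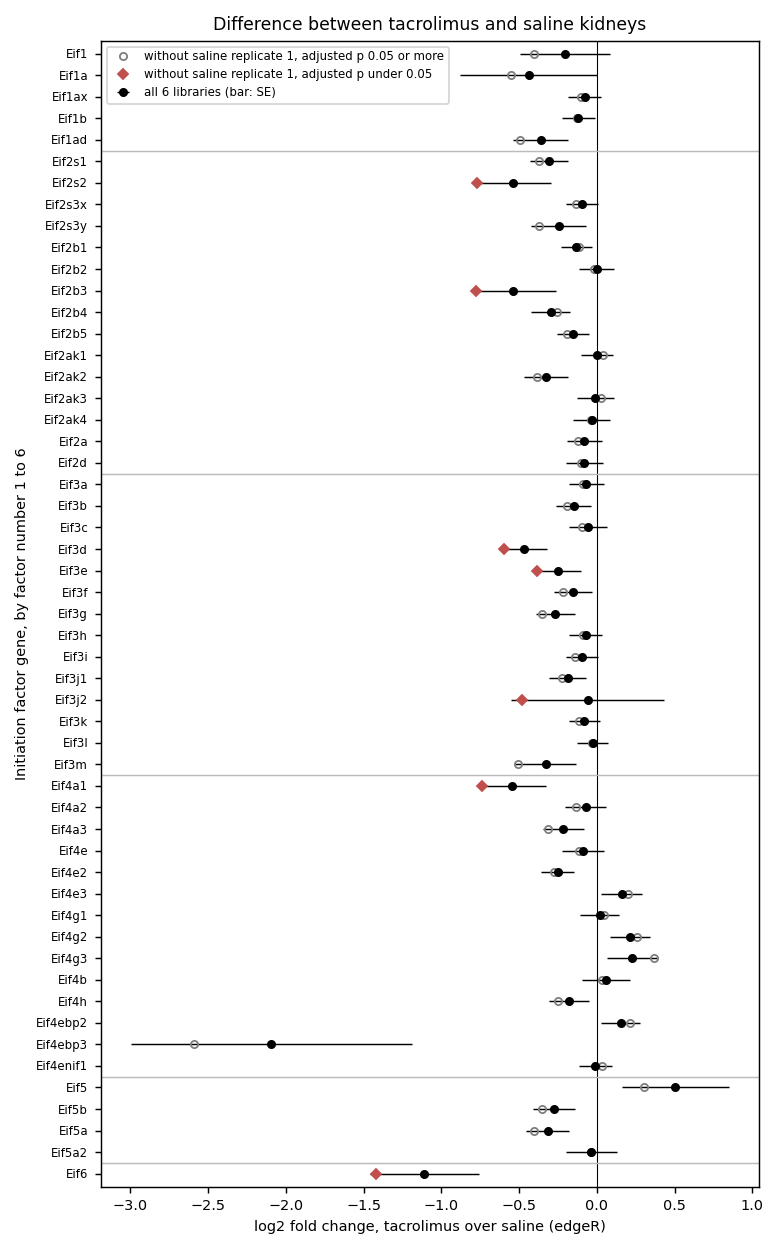
Log2 fold change of tacrolimus over saline for the 53 tested members, grouped by factor number, with the standard error as a bar, and the value without saline replicate 1 as a second mark. Diamonds stand for an adjusted p under 0.05, which 7 members reach without that library and none with it; in both fits all 14 eIF3 genes lie left of 0 and all 3 eIF4G genes right of it, but Eif3j2, Eif3c and Eif4g1 cross 0 in some of the other settings given in the text.

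Upstream sequences are shown for 3 of the 7 genes called without saline replicate 1, 1 each from eIF2, eIF3 and eIF4A, so that the letters before their starts can be read beside their values. The RefSeq promoter table, of the GRCm38.p6 build, held an entry for 44 of the 72 members. The 250 bases before each start are given from 5′ to 3′ on the gene's strand, and capitals mark the motif matches.
Eif2s2 (GRCm38.p6, chr2:154892907-154893156, minus strand): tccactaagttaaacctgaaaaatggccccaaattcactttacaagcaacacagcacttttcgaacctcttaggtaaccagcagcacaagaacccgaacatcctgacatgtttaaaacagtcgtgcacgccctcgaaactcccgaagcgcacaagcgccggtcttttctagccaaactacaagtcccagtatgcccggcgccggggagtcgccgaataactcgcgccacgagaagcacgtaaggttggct
Eif3d (GRCm38.p6, chr15:77970825-77971074, minus strand): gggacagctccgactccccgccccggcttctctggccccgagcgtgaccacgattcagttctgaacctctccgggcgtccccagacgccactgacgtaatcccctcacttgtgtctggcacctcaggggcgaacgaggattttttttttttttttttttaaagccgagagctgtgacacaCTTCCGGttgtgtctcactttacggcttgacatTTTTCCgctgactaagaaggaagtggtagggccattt
Eif4a1 (GRCm38.p6, chr11:69672424-69672673, minus strand): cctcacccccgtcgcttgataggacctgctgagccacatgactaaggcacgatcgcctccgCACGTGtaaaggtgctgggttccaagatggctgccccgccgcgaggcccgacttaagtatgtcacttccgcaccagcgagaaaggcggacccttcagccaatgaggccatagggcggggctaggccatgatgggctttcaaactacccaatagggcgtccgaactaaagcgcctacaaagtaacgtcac
Matches were searched on both strands for the E-box CACGTG, known as a site of MYC and related factors, for the ETS core CCGGAAG and for GGAAAA, the core of sites of the calcineurin-regulated NFAT factors. The ETS and NFAT words share GGAA but cannot both match at the same GGAA. The Eif4a1 window held an E-box 189 bases before the start. The Eif3d window held an ETS core 70 bases and a GGAAAA word 37 bases before the start, both on the other strand. The Eif2s2 window held none of these words. Over the 44 members, 7 (15.9%) held the E-box, against 6.05% of 27025 windows in the table. The ETS core was in 10 members (22.7%) against 7.05% of all windows, and GGAAAA in 10 members (22.7%) against 20.6%. A match describes the letters only.

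All 5 eIF1 genes with enough counts had negative fold changes, with a median log2 of -0.20, and none was called; Eif1 and Eif1a turned positive without saline replicate 3. Eif1 (chr11:100210711-100212922, plus strand, GRCm39) encodes the factor that guards start-codon choice and was the most abundant of them, at a mean of 85.6 FPKM. It had 163, 178 and 161 CPM with tacrolimus and 134, 156 and 288 CPM with saline. Only saline replicate 3 lay above the tacrolimus libraries, and the log2 fold change of -0.20 ± 0.29 (SE) turned to 0.21 without that library. Eif1b, which encodes a protein closely related to eIF1, had 30.9, 32.7 and 33.5 CPM with tacrolimus and 34.4, 33.6 and 37.4 CPM with saline. Its groups did not overlap by CPM but did by FPKM, and the log2 fold change was -0.12 ± 0.11 (edgeR adjusted p = 0.578). Eif1a, 1 of 2 genes for the scanning factor eIF1A, varied most among the saline libraries. It had 54.4, 57.4 and 65.2 CPM with tacrolimus and 66.7, 36.0 and 137 CPM with saline. Eif1ax, the other eIF1A gene, ranged from 91.0 to 99.1 CPM with tacrolimus and from 96.3 to 107 CPM with saline. Eif1ad, named for its eIF1A domain, had 26.1 to 30.0 CPM with tacrolimus and 29.3 to 45.4 CPM with saline. Its gene model overlaps that of Banf1 on the other strand, which had 40.5 to 47.1 CPM with tacrolimus and 55.0 to 82.4 CPM with saline.

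The remaining 16 eIF1 members were numbered Eif1ad genes, all on chromosome 12, and none had enough counts to test. They held 5 counts in all 6 libraries together, and 12 of them had 0 in every library. A count of 0 allows up to 3 counts, or 0.0762 CPM at these depths, and covers counting error only. The other 3 members too low to test were Eif4e1b, with 0 counts, and the Eif4a3 relatives Eif4a3l1 and Eif4a3l2, and none of the 19 held more than 31 counts in total.

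Each of the 4 eIF2 subunit genes had a negative fold change, with a median log2 of -0.28. Eif2s1 encodes eIF2 alpha, the subunit that the stress kinases phosphorylate (chr12:78908593-78933784, plus strand). It had 58.8, 61.1 and 65.8 CPM with tacrolimus and 69.6, 85.7 and 74.7 CPM with saline. The groups did not overlap, and the log2 fold change was -0.31 ± 0.12 (edgeR adjusted p = 0.393). Eif2s2 encodes eIF2 beta (chr2:154713330-154734855, minus strand) and had 74.5, 76.5 and 88.9 CPM with tacrolimus and 75.5, 135 and 138 CPM with saline. Saline replicate 1 lay among the tacrolimus libraries, and the other saline libraries lay above all of them. The log2 fold change of Eif2s2 was -0.54 ± 0.24 (edgeR adjusted p = 0.402) and -0.77 without saline replicate 1 (adjusted p = 0.0139). The gamma subunit, which binds GTP and the initiator tRNA, has an X-linked and a Y-linked gene. Eif2s3x, the most abundant eIF2 gene at 29.7 FPKM, had 109, 107 and 113 CPM with tacrolimus and 109.8, 123 and 118 CPM with saline, and its Y-linked copy Eif2s3y 52.3, 43.1 and 51.0 CPM with tacrolimus and 46.8, 55.6 and 71.1 CPM with saline. These near-identical copies can share reads, so the split between them is uncertain.

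The 5 subunit genes of eIF2B also all had negative fold changes, with a median log2 of -0.16. Eif2b2, which lay at 0, was just above it by DESeq2, by limma on log2 FPKM, with no filter on low counts and without saline replicate 2 or tacrolimus replicate 1 or 2. In 3 of them, Eif2b1, Eif2b4 and Eif2b5, the groups did not overlap, with tacrolimus lower, as in 11.0% of all genes. Eif2b4 encodes the delta subunit and had 25.2, 21.5 and 24.2 CPM with tacrolimus and 30.6, 30.3 and 26.2 CPM with saline. Its log2 fold change was -0.30 ± 0.12 (edgeR adjusted p = 0.394), and its gene model overlaps that of Snx17. Eif2b5, the catalytic epsilon subunit and the most abundant of the 5 at 25.1 FPKM, had 59.7, 64.2 and 61.4 CPM with tacrolimus and 64.8, 70.7 and 71.0 CPM with saline. Eif2b1, the alpha subunit, had 27.96, 27.7 and 27.0 CPM with tacrolimus and 30.8, 30.1 and 29.8 CPM with saline (log2 fold change -0.13 ± 0.10). Eif2b3, the gamma subunit, was the least abundant at 2.44 FPKM, with 11.6, 13.2 and 14.2 CPM with tacrolimus and 11.9, 19.6 and 25.1 CPM with saline. Its log2 fold change was -0.54 ± 0.27 (edgeR adjusted p = 0.413) and -0.78 without saline replicate 1 (adjusted p = 0.0319), but -0.28 without saline replicate 3 (adjusted p = 0.672). Eif2b2, the beta subunit, had 21.5, 22.1 and 24.3 CPM with tacrolimus and 22.0, 23.9 and 22.1 CPM with saline, with equal log2 levels (fold change -0.00).

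The genes of the 4 eIF2 kinases had a median log2 fold change of -0.02, with 3 negative and 1 positive. Eif2ak1 encodes the heme-regulated kinase HRI and was the most abundant at 15.5 FPKM, with 83.7 to 91.4 CPM with tacrolimus and 84.7 to 92.4 CPM with saline. Eif2ak3, the kinase PERK of the endoplasmic reticulum, had 47.7, 49.6 and 47.0 CPM with tacrolimus and 50.4, 42.7 and 52.0 CPM with saline. Eif2ak4, the amino acid sensor GCN2, had 16.1, 14.6 and 15.4 CPM with tacrolimus and 15.5, 15.9 and 15.7 CPM with saline. The groups overlapped for all of these. Eif2ak2, the interferon-induced kinase PKR, had the largest difference among the kinases. It had 22.2, 22.7 and 27.8 CPM with tacrolimus and 27.5, 33.3 and 30.2 CPM with saline, and the groups overlapped by a small margin. Eif2a and Eif2d, which encode initiator-tRNA factors outside the eIF2 complex, both had a log2 fold change of -0.08.

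All 14 eIF3 subunit genes had negative fold changes, from -0.47 for Eif3d to -0.03 for Eif3l on the log2 scale, with a median of -0.12. In other settings Eif3j2 was positive by limma on log2 FPKM, with the replicate block and without saline replicate 2 or 3, and Eif3c without saline replicate 2. By library, the median of the 14 stood at -0.07, -0.10 and -0.04 in the tacrolimus libraries, against -0.05, 0.14 and 0.15 in saline replicates 1, 2 and 3. The groups did not overlap, with tacrolimus lower, for Eif3d, Eif3g and Eif3j1, which is 21.4% of the 14 against 11.0% of all genes. Eif3d encodes a subunit that can itself bind the cap (chr15:77843198-77855013, minus strand). It had 66.9, 66.1 and 71.3 CPM with tacrolimus and 76.1, 102 and 105 CPM with saline. The log2 fold change of Eif3d was -0.47 ± 0.15 (edgeR adjusted p = 0.392), and -0.60 without saline replicate 1 (adjusted p = 0.0161). Eif3g, an RNA-binding subunit, had 39.3, 42.0 and 40.8 CPM with tacrolimus and 42.6, 50.2 and 54.1 CPM with saline. Eif3e had 97.0, 91.3 and 93.2 CPM with tacrolimus and 90.0, 122 and 123 CPM with saline, so that saline replicate 1 was the lowest of the 6 libraries. Its adjusted p was 0.439 with that library and 0.0442 without it. Eif3h was the most abundant subunit gene at 81.6 FPKM and had 135, 121 and 129 CPM with tacrolimus against 131, 131 and 143 CPM with saline. The core subunits Eif3a, Eif3b and Eif3c had log2 fold changes of -0.07, -0.15 and -0.06.

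The loosely bound eIF3j subunit has a pair of near-identical genes in the mouse. Eif3j1 had 62.8, 63.6 and 69.3 CPM with tacrolimus and 69.9, 82.7 and 70.4 CPM with saline. Eif3j2 had 17.5, 15.3 and 16.5 CPM with tacrolimus and 5.47, 23.3 and 22.6 CPM with saline. Saline replicate 1 was thus far below every other library for Eif3j2 but not for Eif3j1. The log2 fold change of Eif3j2 was -0.06 ± 0.49 (edgeR adjusted p = 0.959) and -0.48 without that library (adjusted p = 0.0494). Reads of these copies may be split between them, which makes both values uncertain.

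**Figure D3:**
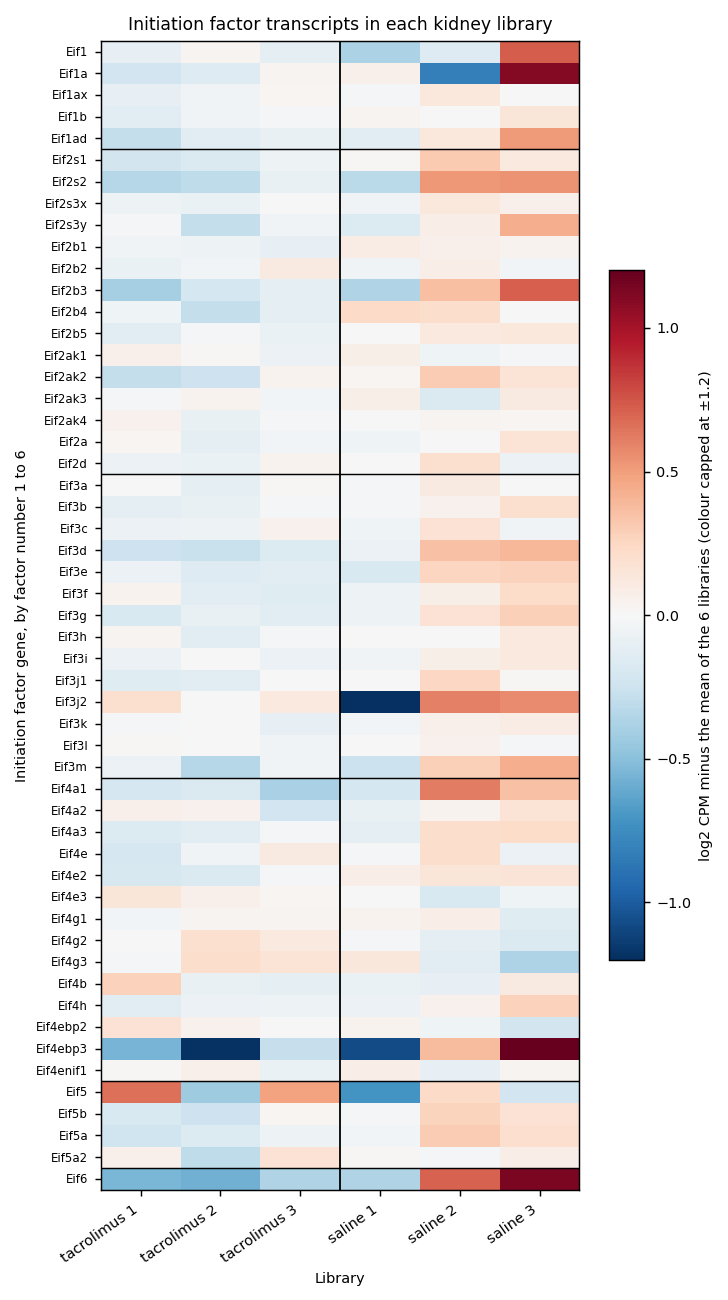
Log2 CPM minus the 6-library mean for the 53 tested members (rows, by factor number) in 3 tacrolimus and 3 saline libraries (columns), with the colour scale limited to plus and minus 1.2. Saline replicates 2 and 3 are above the mean for most eIF2 and eIF3 genes, and saline replicate 1 resembles the tacrolimus columns for many of them, except for Eif3j2.

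The eIF4 genes were the most mixed, with 6 positive and 8 negative fold changes among the 14 tested and a median log2 of -0.04. By role, all 3 eIF4A helicase genes were on the lower side and all 3 eIF4G scaffold genes on the higher side, although Eif4a2 and Eif4g1 crossed 0 when some libraries were left out. Eif4a1, the main helicase (chr11:69557762-69563249, minus strand; 50.4 FPKM), had 184, 188 and 162 CPM with tacrolimus and 184, 325 and 271 CPM with saline. Saline replicate 1 lay inside the tacrolimus range, and the other saline libraries lay well above it. The log2 fold change of Eif4a1 was -0.54 ± 0.22 (edgeR adjusted p = 0.393), and -0.74 without saline replicate 1 (adjusted p = 0.0203), but -0.35 without saline replicate 2 (adjusted p = 0.636). Eif4a2, its close relative, had 114, 113 and 93.3 CPM with tacrolimus and 102, 112 and 123 CPM with saline, with overlapping groups. Eif4a3, a component of the exon junction complex, had 49.7, 50.8 and 55.0 CPM with tacrolimus and 51.2, 64.5 and 64.8 CPM with saline.

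Among the scaffolds, Eif4g2 had separate groups on the higher side. It encodes DAP5, a relative of eIF4G that lacks the eIF4E-binding part (chr7:110666957-110682237, minus strand), and was the most abundant eIF4 gene at 88.9 FPKM. Its values were 903, 1030.2 and 979 CPM with tacrolimus and 885, 827 and 798 CPM with saline. Eif4g2 had a log2 fold change of 0.21 ± 0.13 (edgeR adjusted p = 0.441). Eif4g3 had 140.5, 164 and 159 CPM with tacrolimus and 156, 130.1 and 110.1 CPM with saline, where saline replicate 1 again lay among the tacrolimus libraries. Eif4g1, the main scaffold, had 432, 449 and 450.3 CPM with tacrolimus and 454, 464 and 397 CPM with saline, and its log2 fold change of 0.02 ± 0.12 changed sign when either saline replicate 3 or tacrolimus replicate 3 was left out.

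Cap-binding genes went both ways. Eif4e2 encodes a cap-binding protein known for repressing translation and had 46.9, 47.5 and 52.9 CPM with tacrolimus and 56.6, 59.2 and 59.8 CPM with saline. The groups did not overlap, with a log2 fold change of -0.25 ± 0.11 (edgeR adjusted p = 0.394). Eif4e, the classical cap-binding protein, had 75.9, 84.6 and 93.9 CPM with tacrolimus and 86.4, 101 and 82.9 CPM with saline. Eif4e3, a less abundant relative at 4.48 FPKM, had 12.5, 11.8 and 11.5 CPM with tacrolimus and 11.2, 9.93 and 10.8 CPM with saline. Its groups did not overlap, with the tacrolimus libraries higher by a log2 of 0.16 ± 0.13 (edgeR adjusted p = 0.559), and its model overlaps Gm20696 on the same strand. Eif4b and Eif4h, the helicase cofactors, had log2 fold changes of 0.06 and -0.18. Eif4ebp2, a repressor that holds eIF4E, had 246, 226 and 218 CPM with tacrolimus and 223, 209.7 and 187 CPM with saline. Eif4ebp3, another such repressor, had the fewest counts of any tested member, with 3.15, 2.04 and 3.84 CPM with tacrolimus and 2.20, 6.02 and 30.3 CPM with saline. Its log2 fold change of -2.09 ± 0.90 (edgeR adjusted p = 0.399) had the largest size among the members and was -0.45 without saline replicate 3. The gene lies within the longer Maskbp3 model on the same strand, so its reads cannot be told from those of Maskbp3. Eif4enif1, which encodes an eIF4E transporter, had a log2 fold change of -0.01.

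**Figure D4:**
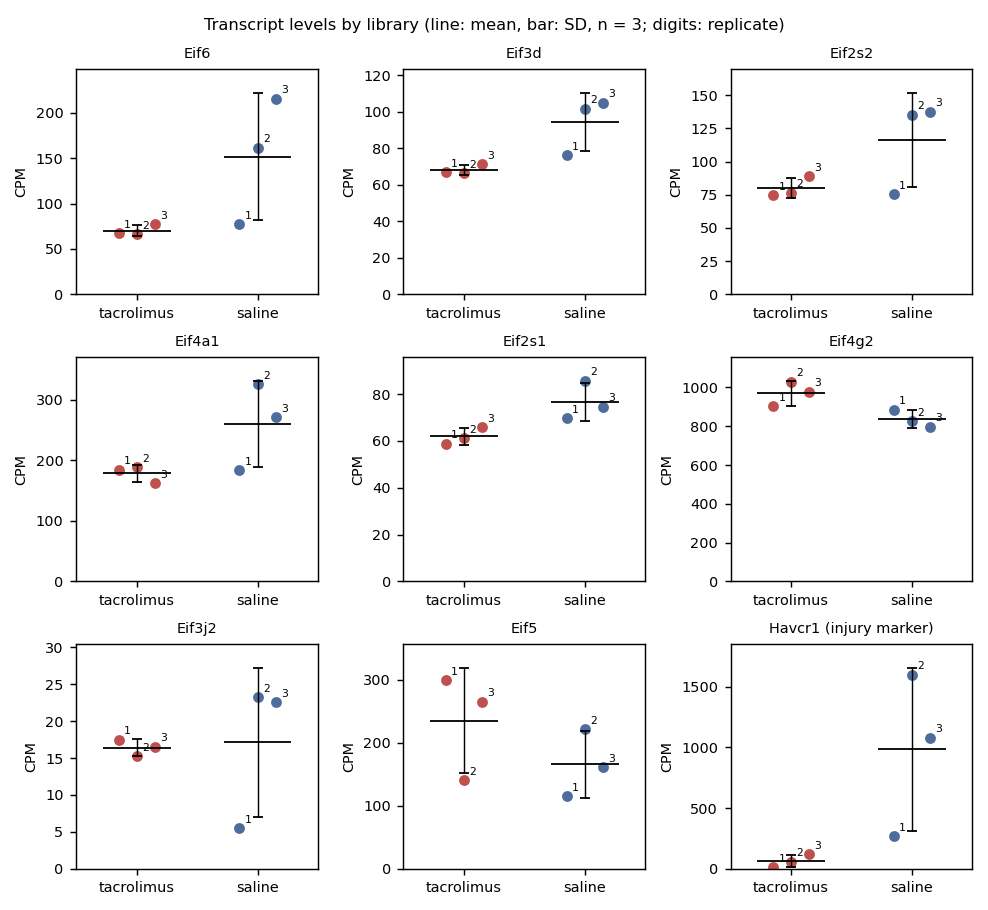
CPM by library, with the mean and SD of each group (n = 3), for 8 initiation factor genes and the injury marker Havcr1, tacrolimus left of saline. Eif6, Eif3d, Eif2s2 and Eif4a1 show saline replicates 2 and 3 above every tacrolimus library with saline replicate 1 close to them, while Eif4g2 runs the other way and Eif5 overlaps widely.

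Of the 4 eIF5 genes, 1 had a positive and 3 a negative fold change. Eif5a (chr11:69807540-69812784, minus strand), the hypusine-bearing factor that helps the ribosome through difficult peptide bonds, was the most abundant of all members at a mean of 161 FPKM. It had 322, 339 and 363 CPM with tacrolimus and 371, 468 and 435 CPM with saline, so the groups were separate. The log2 fold change of Eif5a was -0.32 ± 0.14 (edgeR adjusted p = 0.400), and -0.40 without saline replicate 1 (adjusted p = 0.0607). Eif5a2, its scarce paralog at 2.46 FPKM, had 12.8, 9.96 and 13.9 CPM with tacrolimus and 12.4, 12.1 and 13.0 CPM with saline. Eif5, the GTPase-activating protein of eIF2, had 299.6, 141 and 265 CPM with tacrolimus and 115, 222 and 161 CPM with saline. Its libraries varied widely in both groups, and the log2 fold change of 0.50 ± 0.34 (edgeR adjusted p = 0.482) was within that spread. Eif5b, which joins the ribosomal subunits, had 109, 105 and 126 CPM with tacrolimus and 122, 149.7 and 140.3 CPM with saline.

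Eif6 had the smallest p of all members. It encodes a factor that binds the large ribosomal subunit and keeps it from joining the small one, and it acts in ribosome assembly (chr2:155661752-155668845, minus strand). It had 67.6, 66.2 and 77.0 CPM with tacrolimus and 77.0, 162 and 216 CPM with saline. Tacrolimus replicate 3 and saline replicate 1 were equal to the precision printed, and in reverse order by FPKM (28.6 and 28.5), with 3250 and 3178 raw counts, and saline replicates 2 and 3 were far above every other library. Eif6 averaged 70.2 ± 5.86 CPM with tacrolimus and 152 ± 70.0 CPM with saline (SD, n = 3 each), or 26.1 ± 2.22 and 55.8 ± 25.5 FPKM. The log2 fold change was -1.11 ± 0.35 (edgeR adjusted p = 0.392; DESeq2 adjusted p = 0.0786). Without saline replicate 1 it was -1.42 (edgeR adjusted p = 0.00670). The long non-coding gene Gm16098 overlaps Eif6, with a mean of 189 counts against 4583 for Eif6.

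Several factors have related genes, and the log2 ratio of their FPKM was compared between groups for 8 pairs. A two-sided exact permutation test was used, whose smallest possible p is 0.1 with 3 libraries a group. The kinase genes Eif2ak4 and Eif2ak3 are not close paralogs, and their ratio only describes the balance between them. The ratio of Eif4a2 to Eif4a1 was -0.99, -1.03 and -1.10 in the tacrolimus libraries and -1.14, -1.83 and -1.44 in the saline libraries. These ranges were separate, with a difference of 0.43 (exact p = 0.1, adjusted over the 8 pairs p = 0.533), which was 0.25 without saline replicate 2. Saline replicate 1 was again the saline library closest to the tacrolimus ones. The ratio of Eif4g3 to Eif4g1 differed by 0.22 and that of Eif4e2 to Eif4e by -0.17, each with an exact permutation p of 0.2 (adjusted 0.533), and both overlapped. The Eif4e2 to Eif4e difference was -0.095 without saline replicate 3. For Eif5a2 to Eif5a the difference was 0.26 (exact permutation p = 0.3, adjusted 0.6), with 0.40 without tacrolimus replicate 2 and 0.17 without saline replicate 2. The ratio of Eif3j2 to Eif3j1 was -2.38 in saline replicate 1 and between -0.78 and -0.35 in the other 5 libraries. Differences were 0.00 for Eif1b to Eif1, -0.14 for Eif2s3y to Eif2s3x and -0.03 for Eif2ak4 to Eif2ak3.

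The median SD of log2 CPM over the members was 0.0796 with tacrolimus and 0.137 with saline, and over all genes tested it was 0.165 with tacrolimus and 0.330 with saline. The saline spread was the larger for 40 of the 53 members (75.5%), as for 76.0% of all genes. All genes tested include many of lower abundance: among the 2141 genes at least as abundant as the median member, the median SD was 0.0882 with tacrolimus and 0.242 with saline, and the saline spread was the larger for 85.4%. Against these genes, the members' spread was about the same with tacrolimus and smaller with saline. The sets were not matched for abundance, since these genes had a higher median level than the members.

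Partner genes of the same steps were given from a separate list of 41 genes, covering initiation partners, elongation, termination and recycling, the mTOR and MAP kinase input and the integrated stress response. All 41 had enough counts, 0 were called, and 15 had positive and 26 negative fold changes, with a median log2 of -0.10. Pabpc1, the poly(A)-binding protein that contacts eIF4G, had the smallest p of the list. It had 314, 271 and 284 CPM with tacrolimus and 318, 462 and 515 CPM with saline. Its log2 fold change was -0.57 ± 0.20 (edgeR adjusted p = 0.392) and -0.75 without saline replicate 1 (adjusted p = 0.0160). Eef1b2, a subunit of the exchange factor for elongation factor eEF1A, had 119, 145 and 129.7 CPM with tacrolimus and 139, 185 and 203 CPM with saline. It was called lower without saline replicate 1, with a log2 fold change of -0.56 (edgeR adjusted p = 0.0356). Eef1d, another subunit of that exchange factor, had 41.2, 46.6 and 37.7 CPM with tacrolimus and 46.3, 53.8 and 52.6 CPM with saline. Of the 8 integrated stress response genes, 3 had positive and 5 negative fold changes, with a median log2 of -0.22. The negative ones included Ppp1r15a (-0.77), Atf4 (-0.66), Trib3 (-0.60) and Ddit3 (-0.41), none of them called. The groups overlapped for Ppp1r15a, Atf4 and Trib3, but not for Ddit3. Ppp1r15a had 17.9, 19.2 and 49.9 CPM with saline and 14.1 to 19.2 CPM with tacrolimus. With 1 library left out, the log2 fold change reached -0.12 for Ppp1r15a, -0.34 for Atf4, -0.30 for Trib3 and -0.24 for Ddit3. Dnajc3, 1 of the positive ones and an inhibitor of the kinases PKR and PERK, had 258, 267 and 285 CPM with tacrolimus and 251, 175 and 170.2 CPM with saline. The groups did not overlap, and the log2 fold change of Dnajc3 was 0.44 ± 0.18 (edgeR adjusted p = 0.393) and 0.65 without saline replicate 1 (adjusted p = 0.0162). Mtor, the kinase that phosphorylates the eIF4E-binding proteins, had 152, 158 and 164 CPM with tacrolimus and 138, 138 and 125 CPM with saline, also with separate groups. Dhx29, a helicase for structured leaders, had 32.2, 34.5 and 35.7 CPM with tacrolimus and 30.3, 25.7 and 15.4 CPM with saline. Mtor had an adjusted p of 0.401, Eef1d of 0.402 and Dhx29 of 0.405 by edgeR.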

How the data were processed

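RNA was extracted with TRIzol or a column kit from whole mouse kidney and sequenced in a single batch, per the labels' protocols. The deposited table held raw counts per gene and the authors' FPKM values, per the file headers, with coordinates on GRCm39 (per the submitters' processing notes). Not given in the sources used here were the annotation release, the aligner and the counter with its strand setting. Total counts ran from 38443534 to 44476844 per library, with 22512 to 22809 genes detected, so 1 CPM rests on at least 39.4 counts. 1 emptied line of the table was left out.

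Counts were tested with edgeR 4.0.16 in R 4.3.3 (TMM, robust quasi-likelihood, filterByExpr with a minimum count of 10 and a minimum total of 15), with Benjamini-Hochberg adjustment over 17557 genes and a threshold of 0.05. The biological coefficient of variation was 0.304. Alternatives were DESeq2 1.42.0, its size factors in edgeR, no filter, limma 3.58.1 on log2 FPKM with a pseudocount of 1 or 0.1, a replicate block and leaving out each library. The steps were checked on simulated counts, where edgeR recovered 9 of 50 genes changed 2-fold and 42 of 50 changed 4-fold. A change of 2-fold or less can therefore go uncalled with 3 libraries a group. Levels of different genes are set side by side as FPKM only. No libraries were duplicates.

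The members and lists were chosen with earlier results of these data known. Values by library were given for members called, for up to 14 members whose groups did not overlap and for the member of highest mean FPKM of each factor number. They were also given for both genes of the 8 pairs compared by ratio, for Havcr1 and for the 6 partners with the smallest p. Other genes named were chosen after their values were seen. Promoter windows came from RefSeq (GRCm38.p6).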

Additional observations from a re-analysis of the deposited data

How the results depend on the processing

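Members with a positive fold change numbered 7 to 12 of those tested, and the members' median log2 fold change stayed between -0.15 and -0.08, in every alternative run. Over all genes, 344 were called by DESeq2, 1 with a replicate block, 1 by limma on log2 FPKM with either pseudocount, and 0 to 2534 when 1 library was left out, most without saline replicate 1. Leaving out 1 library gave 0 to 7 members and 0 to 3 partner genes called, above 0 only without saline replicate 1, where Havcr1 was called too (log2 fold change -4.39, adjusted p = 0.0232); DESeq2 also called Havcr1 (-3.95, adjusted p = 5.94e-05). No member was called in any other alternative, the replicate block included. Members whose log2 fold change crossed 0 did so uncalled. When 1 library was left out, the range was -0.41 to 0.21 for Eif1, -0.79 to 0.20 for Eif1a (each positive without saline replicate 3), -0.13 to 0.0087 for Eif4a2 (positive without tacrolimus replicate 3), -0.049 to 0.060 for Eif4g1 (negative at -0.049 without saline replicate 3 and -0.0013 without tacrolimus replicate 3), -0.17 to 0.0026 for Eif4e (positive without saline replicate 2), and -0.15 to 0.093 for Eif5a2 and -0.068 to 0.0044 for Eif2ak4 (each positive without tacrolimus replicate 2). Eif2ak3 ran from -0.092 to 0.047, with 0.024 without saline replicate 1, and was 4.23e-05 with no filter and 0.0038 and 0.0048 with limma. Eif3j2 ran from -0.48 to 0.23, with 0.19 without saline replicate 3, and was 0.17 with the replicate block and 0.14 and 0.20 with limma. Eif2b2 ran from -0.064 to 0.038 (0.0381 without saline replicate 2, 0.0383 without tacrolimus replicate 1, 0.018 without tacrolimus replicate 2) and was 4.37e-05 by DESeq2, 0.0080 with no filter and 0.0065 and 0.0069 with limma. Eif4enif1 ran from -0.059 to 0.031, with 0.0048 without saline replicate 3 and 0.020 without tacrolimus replicate 3, and was 0.00026 and 0.00044 with limma. Eif2ak1 ran from -0.025 to 0.042, with -0.024 and -0.0096 without saline replicate 2 or 3 and -0.0028 without tacrolimus replicate 2. Eif2d ran from -0.13 to 0.0025 and Eif3c from -0.10 to 0.020 (each positive without saline replicate 2), and Eif4b from -0.074 (without tacrolimus replicate 1) to 0.13. The ratio differences of the pairs ran from -0.28 (without saline replicate 3) to 0.21 for Eif1b to Eif1, with -0.048 without tacrolimus replicate 3. They ran from -0.23 to 0.017 (without saline replicate 3) for Eif2s3y to Eif2s3x, and from -0.26 (without saline replicate 1) to 0.76 for Eif3j2 to Eif3j1. For Eif2ak4 to Eif2ak3 they ran from -0.085 to 0.064 (without saline replicate 2), with 0.028 without tacrolimus replicate 2. Uncalled values that moved by over 1.5 times without crossing 0 included Eif2b3 (-0.28 without saline replicate 3, -0.34 by limma with pseudocount 1), Eif4a1 (-0.35) and Eif3j1 (-0.10) without saline replicate 2, Eif1b (-0.071), Eif4g3 (0.11), Eif4ebp2 (0.087) and Dhx29 (0.29) without saline replicate 3, and Eif5 (0.29 to 0.77 when 1 library was left out). The cause of these shifts was not tested. Same-numbered libraries of the groups did not deviate together (r from -0.05 to -0.01) and no library correlated best with its own number, so the replicate block pairs them by number alone. The 19 members with too few counts were not compared.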
